A study of Mus musculus with 6 samples.

Results

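The 40 genes described here are interferon-stimulated genes, chosen by name from what is known of the interferon response. The choice was made with earlier results of these data known. Of the 40, 30 have an entry in the gene-level table of the study, and the other 10 were read from the transcript files (Ifi44, Isg15, Mx2, Oas1a, Oas2, Oasl1, Oasl2, Rsad2, Gbp3 and Gbp4). They were placed in 3 role groups. The type I interferon antiviral genes held 23 members, the interferon-inducible GTPases of the GBP and IRG families held 10, and the sensors and regulators held 7. After an expression filter 33 members could be tested, out of 12925 genes tested and 22400 genes with a count.

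RNA was sequenced from CD4+ T cells of C57BL/6 mice aged 8 to 10 weeks after 48 h of culture under Th9 conditions, that is activation through CD3 and CD28 in the presence of IL-4, TGF-β and an antibody that blocks IFN-γ. The WT group (n = 3) came from Cul5 fl/fl littermates without Cre, and the Cul5 cKO group (n = 3) from Cul5 fl/fl mice carrying CD4-Cre, so both groups carry the floxed alleles and both received anti-IFN-γ. CD4-Cre is driven by the CD4 promoter, which is active from the thymus onwards, so the deletion is present in T cells before activation and also in CD8 T cells. Cul5 is the scaffold of a ubiquitin ligase that pairs with SOCS box proteins, and the comparison asks what its loss does to gene expression in these cultures. The labels give spleen as the source and the methods of the study name spleen and lymph nodes, and the labels do not say whether each sample is a separate mouse, so p-values measure only the spread between these samples.

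Type I interferons bind the receptor made of Ifnar1 and Ifnar2, which signals through Jak1 and Tyk2 to a complex that contains Stat2 and Irf9. That complex binds the interferon-stimulated response element (ISRE) of antiviral genes. IFN-γ binds Ifngr1 and Ifngr2 and acts through the gamma-activated site (GAS), and the GBP and IRG GTPases that attack vacuoles of intracellular pathogens are the classical genes of that arm. Many members respond to both arms, and T cells keep a low level of several of them without added interferon.

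Totals of estimated counts were 23111689 to 23454552 in 5 samples and 3944803 in WT replicate 3, so 3 counts, taken here as the floor of detection, corresponded to 0.128 to 0.133 CPM (counts scaled by library size to a total of 1000000) in those 5 samples and to 0.759 CPM in WT replicate 3. Floors cover counting error only. The deleted gene, Cul5, was at 64.4, 69.3 and 65.0 CPM in WT and at 10.6, 14.2 and 13.1 CPM in Cul5 cKO (log2 fold change -2.39 ± 0.115 SE, adjusted p = 0.000992), with reads from exons outside the floxed ones included. All 6 CD4 T cell markers were expressed. The summed B cell markers were 15.8 to 19.8 CPM in WT and 6.86, 10.6 and 50.2 CPM across Cul5 cKO replicates 1 to 3, while myeloid markers stayed at or under 11.4 CPM, dendritic cell markers at or under 3.55 CPM and NK cell markers at or under 1.07 CPM. The replicates numbered 1 differed from the rest in both genotypes, with values for the members given further on.

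Promoter windows of 300 bases, from 250 before to 50 after the RefSeq start site, were found for 30 members in the GRCm38.p6 table of RefSeq (not found were Mx1, Mx2, Oas2, Usp18, Gbp4, Iigp1, Dhx58, Parp9, Parp14 and Zbp1). The core of the ISRE was searched as GAAANNGAAA and the GAS as TTCNNNGAA, on both strands. An ISRE core was present for 17 of the 30 members (56.7%), against 3.99% of 27025 genes with a window. A GAS was present for 11 of the 30 (36.7%), against 9.55% of genes. Among the GTPases 7 of 8 held the ISRE core and 4 of 8 a GAS, among the antiviral genes 8 of 17 and 6 of 17, and among the sensors and regulators 2 of 5 and 1 of 5. A match describes these letters only and is not evidence that a factor binds there. The 6 windows printed here belong to Isg15, the marker of the response that was hardly detected, to Igtp, one of the most abundant members, to Gbp2, Samhd1 and Ddx58, whose Cul5 cKO samples all lay below WT, and to Bst2, whose Cul5 cKO samples all lay above. They are written 5′ to 3′ on the gene's strand with matches to either motif in capitals.
Isg15 (chr4:156200769-156201068, minus strand): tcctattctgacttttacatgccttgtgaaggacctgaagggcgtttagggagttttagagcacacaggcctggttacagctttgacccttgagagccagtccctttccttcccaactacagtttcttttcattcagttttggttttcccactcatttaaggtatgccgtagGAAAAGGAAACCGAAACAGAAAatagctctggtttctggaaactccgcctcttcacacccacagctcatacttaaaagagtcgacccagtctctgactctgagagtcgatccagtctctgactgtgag
Igtp (chr11:58199306-58199605, plus strand): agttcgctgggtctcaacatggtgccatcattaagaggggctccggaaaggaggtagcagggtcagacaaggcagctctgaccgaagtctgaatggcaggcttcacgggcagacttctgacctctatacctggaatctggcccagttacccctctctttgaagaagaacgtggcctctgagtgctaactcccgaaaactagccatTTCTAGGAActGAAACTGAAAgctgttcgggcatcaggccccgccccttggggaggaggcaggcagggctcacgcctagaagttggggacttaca
Gbp2 (chr3:142620413-142620712, plus strand): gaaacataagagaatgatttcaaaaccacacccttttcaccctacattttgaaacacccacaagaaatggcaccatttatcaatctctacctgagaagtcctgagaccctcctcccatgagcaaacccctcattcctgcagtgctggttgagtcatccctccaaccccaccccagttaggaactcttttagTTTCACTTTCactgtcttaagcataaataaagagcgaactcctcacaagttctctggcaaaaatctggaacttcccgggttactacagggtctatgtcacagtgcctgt
Samhd1 (chr2:157135047-157135346, minus strand): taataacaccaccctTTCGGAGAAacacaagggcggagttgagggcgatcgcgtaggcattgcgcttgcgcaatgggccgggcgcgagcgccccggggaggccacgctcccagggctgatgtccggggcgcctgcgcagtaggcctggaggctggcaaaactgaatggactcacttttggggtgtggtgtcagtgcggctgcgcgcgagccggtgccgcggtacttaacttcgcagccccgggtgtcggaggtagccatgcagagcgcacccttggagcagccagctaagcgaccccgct
Ddx58 (chr4:40239776-40240075, minus strand): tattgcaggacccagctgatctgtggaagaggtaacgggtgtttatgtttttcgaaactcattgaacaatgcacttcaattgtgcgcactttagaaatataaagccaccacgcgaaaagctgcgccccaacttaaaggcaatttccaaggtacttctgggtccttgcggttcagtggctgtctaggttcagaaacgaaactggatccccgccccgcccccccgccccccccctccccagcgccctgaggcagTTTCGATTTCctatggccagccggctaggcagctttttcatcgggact
Bst2 (chr8:71537423-71537722, minus strand): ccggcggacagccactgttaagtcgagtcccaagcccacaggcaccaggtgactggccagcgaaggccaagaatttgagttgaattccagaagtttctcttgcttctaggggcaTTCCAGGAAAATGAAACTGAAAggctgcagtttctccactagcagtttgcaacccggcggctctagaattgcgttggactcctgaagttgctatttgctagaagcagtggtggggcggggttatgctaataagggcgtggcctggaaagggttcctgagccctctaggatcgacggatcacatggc

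The Isg15 window holds 3 overlapping ISRE cores that begin 78, 72 and 66 bases before the start site. Bst2 has 2 overlapping ISRE cores from 130 and 124 bases before the start. The first of them overlaps a GAS that begins at 136. Igtp has an ISRE core at 34 next to a GAS at 45. Gbp2 has 1 ISRE core, on the other strand, at 59 bases before the start. Ddx58 has 1 ISRE core, also on the other strand, that begins 2 bases after the start. In the Samhd1 window the only match was a GAS at 235 bases before the start. The levels of members with and without a match overlapped widely for both motifs. The 17 with an ISRE core had a median of 2.68 TPM (counts divided by transcript length and scaled to a fixed total, which allows levels of different genes to be compared), with a range from 0.0271 for Rsad2 to 98.3 for Igtp. The 13 without one had a median of 14.8 TPM, from 0.0839 for Ifi44 to 132.5 for Ifi47. For the GAS the medians ran the other way, with 14.8 TPM in the 11 members that held one (0.25 to 103 TPM) and 2.22 TPM in the 19 that did not (0.0271 to 132.5 TPM). Among those tested, 10 of 14 with the core and 9 of 11 without it had a lower estimate in Cul5 cKO, with medians of -0.15 and -0.11 on the log2 scale. With and without a GAS the numbers were 7 of 10 and 12 of 15, with medians of -0.11 and -0.125. None of these differences was tested.

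**Figure D1:**
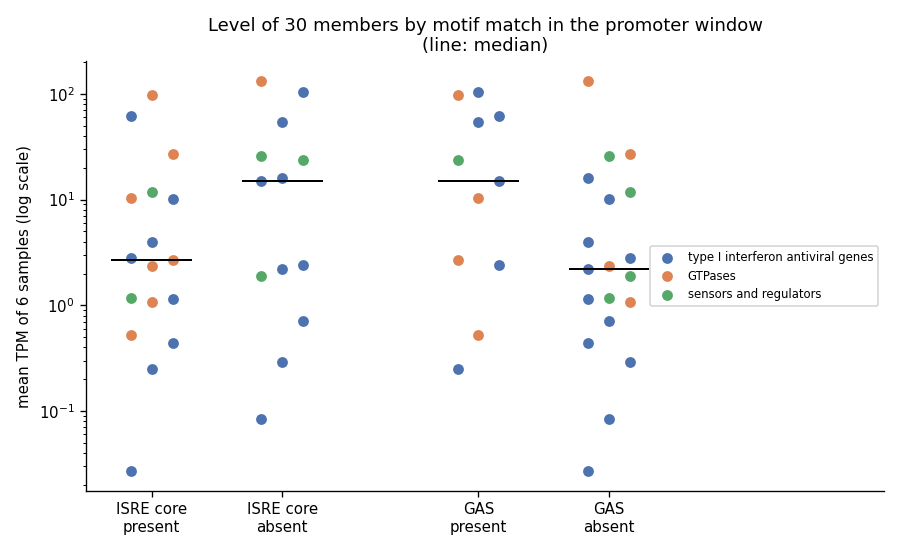
Mean TPM over the 6 samples (log axis) for the 30 members with a promoter window, split by the presence of an ISRE core (left pair) and of a GAS (right pair), coloured by role group, with black lines at the medians. Members with an ISRE core span from Rsad2 at 0.0271 to Igtp at 98.3 TPM, and the median of those without it, 14.8 TPM, is above the 2.68 TPM of those with it, while members with a GAS have the higher median, 14.8 against 2.22 TPM.

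Among the genes used to read a type I interferon response, Isg15 and Rsad2 were near or under the floor, while Irf7, Mx1, Usp18, Ifit1 and Ifit3 were above it in all 6 samples. Isg15, a ubiquitin-like modifier and one of the 2 markers of the set, was at 0.299, 0.735 and 0.506 CPM in WT and at 0.391, 0.394 and 0.311 CPM in Cul5 cKO, too low to be tested. The other marker, Irf7, the factor that amplifies type I interferon production, was at 0.555, 2.55 and 2.02 CPM in WT and at 0.912, 2.85 and 0.845 CPM in Cul5 cKO. The Irf7 values of the genotypes overlapped fully (log2 fold change -0.11 ± 0.688, adjusted p = 0.953). Rsad2 (viperin) was at or under 3 counts in 6 of 6 samples, Mx2 in 5, Ifi44 and Oas1a in 4, and Oas2 and Oasl1 in 3. The single higher value among these was Oas1a, an oligoadenylate synthetase that senses viral RNA, at 1.05 CPM in Cul5 cKO replicate 2. In all, 9 of the 40 members averaged under 1 TPM and 15 averaged over 10 TPM.

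At the other end, Ifi47 (an IRG GTPase, mean 132.5 TPM over 6 samples), Samhd1 (103 TPM) and Igtp (98.3 TPM) led, followed by Bst2 at 61.5 TPM, Ifi35 at 54.2, Irgm1 at 27.2, Irf9 at 25.7, Irf1 at 23.8 and Parp9 at 21.7 TPM. The GBP GTPases were far lower, from Gbp7 at 0.521 TPM to Gbp4 at 4.28 TPM, and so was the IRG member Iigp1 at 1.8 TPM. The first 3 had ranges over samples that overlapped, with 123 to 146 TPM for Ifi47, 57.9 to 138.5 for Samhd1 and 83.6 to 124 for Igtp, so their order is not firm.

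**Figure D2:**
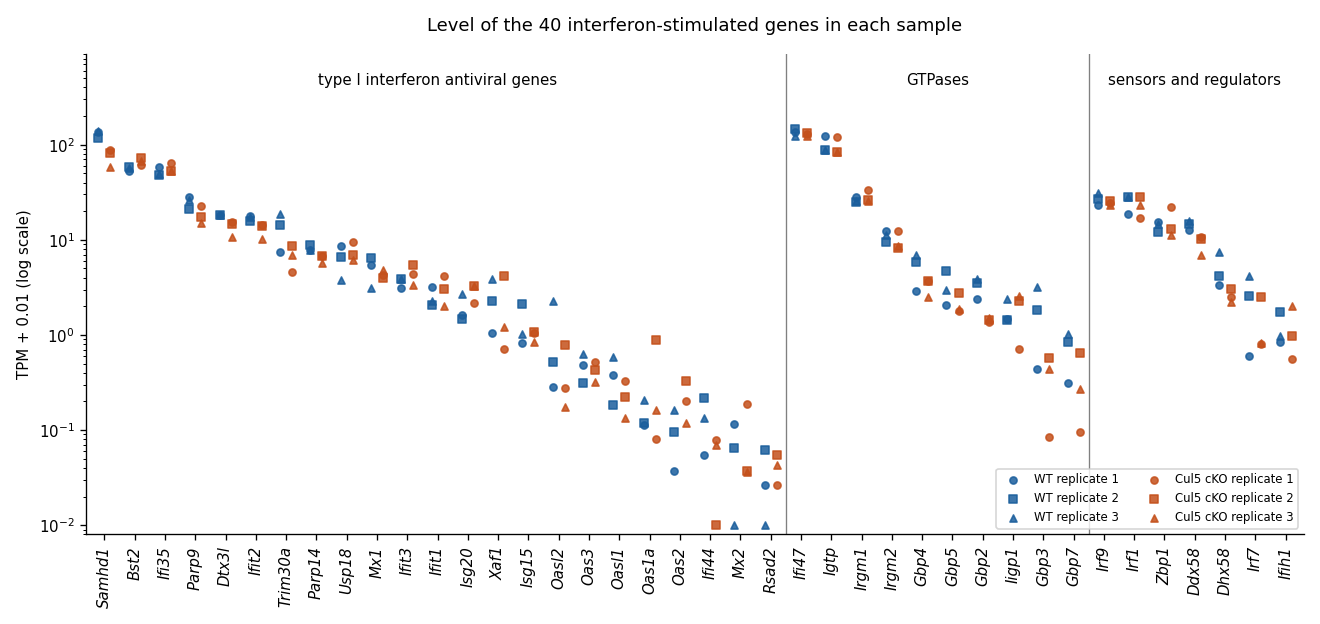
TPM + 0.01 (log axis) of all 40 members in each sample, WT in blue and Cul5 cKO in orange, with a marker shape for each replicate and genes ordered by mean within each role group. Samhd1, Ifi47 and Igtp lie near 100 TPM while Isg15 lies near 1 TPM and Rsad2 under 0.1 TPM in all 6 samples.

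No member passed an adjusted p of 0.05 in edgeR's quasi-likelihood test of Cul5 cKO against WT, where 1.03% of all genes tested did. At an unadjusted p under 0.05, 8 of the 33 were lower in Cul5 cKO (Samhd1, Gbp2, Parp14, Ddx58, Dtx3l, Dhx58, Ifit2 and Trim30a), against 10.4% of all genes tested, and 1 was higher (Bst2), against 10.9%. In 7 members every Cul5 cKO sample lay below every WT sample, which 13.5% of all genes tested did, and in 1 member, Bst2, every Cul5 cKO sample lay above, which 14% did. The estimate was lower in Cul5 cKO for 25 members and higher for 8, with a median log2 fold change of -0.17, beside -0.01 and 51.2% lower over all genes tested. These shares describe the set and were not tested.

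Calls of members depended on how replicate 1 was handled and on the tool. DESeq2 called 4 members, Samhd1, Gbp2, Ddx58 and Dtx3l, all lower, where it called 5.84% of genes. When edgeR was given a term for replicate 1, 8 were called (Samhd1, Gbp2, Trim30a, Parp9, Parp14, Ddx58 and Dtx3l lower, Bst2 higher), where 13.1% of genes were. In bulk RNA, fewer cells that express a gene and less of its RNA per cell cannot be told apart.

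**Figure D3:**
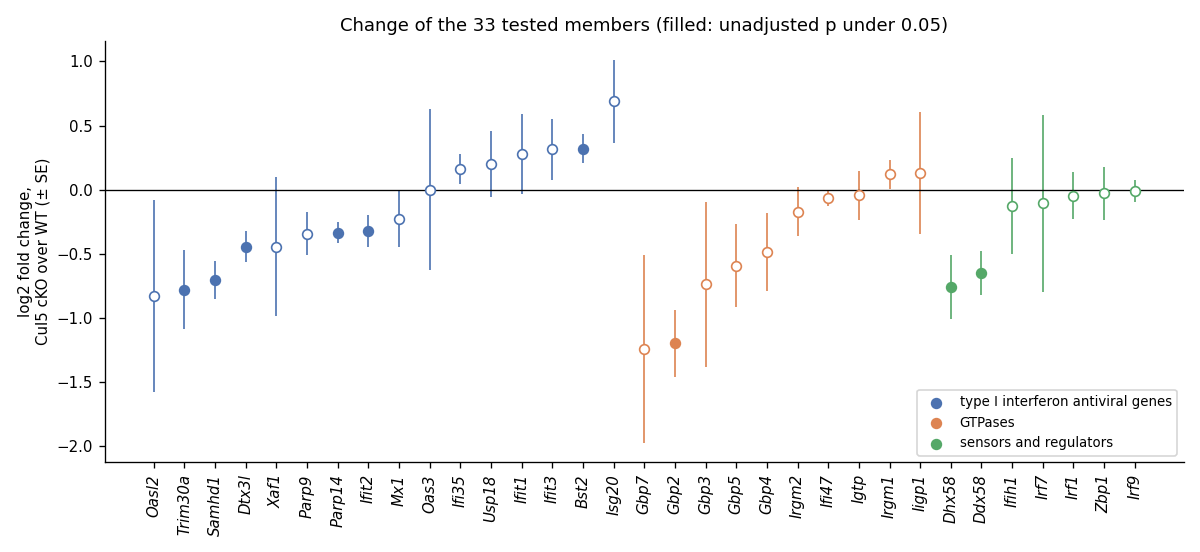
log2 fold change of Cul5 cKO over WT with its SE (bars) for the 33 tested members, by role group and ordered within each group, filled where the unadjusted p is under 0.05. The estimates run from -1.24 for Gbp7 to 0.69 for Isg20, and 8 of the 9 filled points lie below 0.

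Among the type I interferon antiviral genes, 16 of 23 were tested, 10 with a lower and 6 with a higher estimate, and 0 were called. Their median log2 fold change was -0.28. Summed over the 23, the group stood at 573, 512 and 550 CPM in WT and at 456, 422 and 358 CPM in Cul5 cKO, and Samhd1 alone accounted for much of that sum.

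Samhd1 hydrolyses deoxynucleotides and restricts retroviruses, and it is at chromosome 2, 157097533 to 157135265 (GRCm38). It was at 253, 209 and 229 CPM in WT and at 171, 139.5 and 114 CPM in Cul5 cKO (means 231 ± 22.0 and 142 ± 28.5, SD, n = 3). All 3 Cul5 cKO samples were below all 3 WT samples, and Cul5 cKO replicate 3, the sample with the most B cell marker RNA, was the lowest. The estimate was 61.4% of WT (log2 fold change -0.70 ± 0.148), and the adjusted p was 0.0745 in edgeR and 0.000226 in DESeq2. Without Cul5 cKO replicate 1 the edgeR test called it as well. Samhd1 transcripts share stretches of up to 207 bases at 95% identity or more with transcripts of other genes, among them Map4 and Taf1d with 126% and 108% as many counts, so reads from those stretches are uncertain.

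Parp14, Dtx3l and Parp9 lie side by side on chromosome 16 between 35832874 and 35972605. Parp9 and Parp14 are ADP-ribosyltransferase family proteins, and Dtx3l is a ubiquitin ligase that forms a complex with Parp9. Dtx3l was at 68.5, 64.9 and 71.6 CPM in WT and at 55.4, 53.8 and 41.0 CPM in Cul5 cKO (log2 fold change -0.44 ± 0.120, adjusted p = 0.112). Parp14 was at 40.7, 43.9 and 43.8 CPM against 35.3, 35.6 and 30.8 CPM (-0.33 ± 0.0843, adjusted p = 0.107). Neither gene overlapped between the genotypes. Parp9, at 35.5 to 49.1 CPM against 27.8 to 39.6 CPM, did overlap (-0.34 ± 0.166, adjusted p = 0.289). Exons of Dtx3l and Parp9 overlap on opposite strands by up to 367 bases, so some reads there could come from either gene.

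Trim30a, a ubiquitin ligase that damps innate signalling, was at 17.1, 30.9 and 34.2 CPM in WT and at 10.5, 20.3 and 16.01 CPM in Cul5 cKO. Replicate 1 was the lowest in each genotype and the genotypes overlapped, because WT replicate 1 lay below Cul5 cKO replicate 2 (log2 fold change -0.78 ± 0.311, adjusted p = 0.213). In replicates 2 and 3 alone the adjusted p was 0.0284. Trim30a shares 301 bases at 97.7% identity with Trim30d, which held 12.2% as many counts.

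The IFIT genes, which bind viral RNA, lie together on chromosome 19 but did not share a direction. Ifit2, the most abundant of them, was at 42.4, 34.9 and 41.5 CPM in WT and at 33.9, 33.8 and 26.99 CPM in Cul5 cKO, with a narrow gap between the genotypes (log2 fold change -0.32 ± 0.122, adjusted p = 0.194). Ifit1 was at 3.55 to 5.72 CPM against 3.69 to 7.47 CPM (0.28 ± 0.311), and Ifit3 at 3.501 to 4.55 CPM against 3.91 to 6.22 CPM (0.31 ± 0.236). Both overlapped. Ifit3 shares 1700 bases at 97.8% identity with Ifit3b, which held 33.5% as many counts, so the division of reads between them is uncertain.

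Bst2 (tetherin), which holds budding virions at the cell surface, was the single member with every Cul5 cKO sample above WT. It was at 21.4, 23.0 and 22.8 CPM in WT and at 24.1, 30.7 and 28.9 CPM in Cul5 cKO (means 22.4 ± 0.861 and 27.9 ± 3.4, SD, n = 3). The gap was small, from 23.0 CPM in the highest WT sample to 24.1 in the lowest Cul5 cKO sample (log2 fold change 0.32 ± 0.111, adjusted p = 0.168). Plasmacytoid dendritic cells also express Bst2. The 6 dendritic cell markers summed to 0.726 to 1.125 CPM in WT and to 1.476, 3.55 and 1.2 CPM in Cul5 cKO, highest in replicate 2, which was also the highest sample for Bst2. Of these 6 markers, Itgax was the single one tested (log2 fold change 1.54, adjusted p = 0.161). Flt3 was at 1.27 CPM in Cul5 cKO replicate 2 and at most at 0.222 CPM elsewhere. Siglech was at 0 to 0.307 CPM, with 7 counts in Cul5 cKO replicate 2 and 5 and 4 in WT replicates 1 and 2. Xcr1 was highest in WT replicate 2, at 0.346 CPM. Ly6d was at or under 3 counts in all samples, and Klk1 was at 0 in all samples. The part of these cells in the Bst2 values was not tested. Ifi35, which binds the factor Nmi, was at 47.2, 37.0 and 38.0 CPM in WT and at 50.9, 43.0 and 43.5 CPM in Cul5 cKO, overlapping between the genotypes (0.16 ± 0.119, adjusted p = 0.473).

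The remaining antiviral members were low and their genotypes overlapped. Isg20, an exonuclease, had the highest estimate of the whole set, with 0.854, 0.908 and 1.26 CPM in WT and 1.13, 1.80 and 1.69 CPM in Cul5 cKO (log2 fold change 0.69 ± 0.323, adjusted p = 0.273). Oasl2, an oligoadenylate synthetase-like protein, had the lowest estimate of its group, with 0.213, 0.995 and 1.52 CPM against 0.304, 0.745 and 0.222 CPM (-0.83 ± 0.752, adjusted p = 0.565). Its spread within each genotype was larger than the difference. Oas3 was at 0.865 to 1.77 CPM against 1.02 to 1.43 CPM, with an estimate of 0.00. Usp18, which removes Isg15 from proteins and blunts receptor signalling, was at 4.55 to 8.20 CPM against 6.09 to 9.47 CPM (0.20 ± 0.258). Xaf1, a proapoptotic protein, was at 1.02 to 3.29 CPM against 0.738 to 2.19 CPM (-0.44 ± 0.545). Its transcripts share stretches of up to 197 bases with far more abundant genes such as Riok3, and Oas1a shares 1861 bases at 97.6% identity with Oas1g, so both values are uncertain.

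Mx1, a dynamin-like GTPase against influenza virus, was at a mean of 10.02 ± 3.04 CPM in the WT samples and 8.87 ± 1.03 CPM in Cul5 cKO (SD, n = 3) (-0.23 ± 0.218, adjusted p = 0.581). C57BL/6 and most laboratory strains carry a defective Mx1, and a mean of 99.4% of its TPM was assigned to Mx1-203, which the annotation marks as a target of nonsense-mediated decay.

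All 10 GTPases were tested, 8 with a lower and 2 with a higher estimate, and 0 were called. Their median log2 fold change was -0.33. The summed level was 396, 347 and 359 CPM in WT and 385, 334 and 322 CPM in Cul5 cKO, so the genotypes overlapped on the sum. That sum came almost wholly from the IRG members, and the 5 lowest estimates were those of the GBP members.

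Of the IRG GTPases, Ifi47, Igtp, Irgm1 and Irgm2 averaged over 10 TPM and Iigp1 did not, and the genotypes overlapped in all 5. Ifi47 was at 143, 145 and 136 CPM in WT and at 133, 142 and 131 CPM in Cul5 cKO, with the smallest SE of the 33 tested members (log2 fold change -0.07 ± 0.0631, adjusted p = 0.592). Igtp (Irgm3), a regulator that protects host membranes from the effector GTPases, was at 163, 111 and 117 CPM in WT and at 158, 111 and 112 CPM in Cul5 cKO. For Igtp the samples split by replicate 1 and not by genotype (-0.04 ± 0.190, adjusted p = 0.924). Irgm1, of the same regulator class, was at 40.8, 35.1 and 38.7 CPM against 47.9, 38.0 and 38.5 CPM (0.12 ± 0.113, adjusted p = 0.581). Irgm2 was at 21.8 to 30.02 CPM against 19.6 to 29.7 CPM (-0.17 ± 0.189), and the effector Iigp1 at 2.64 to 4.30 CPM against 1.30 to 4.76 CPM (0.13 ± 0.477). Igtp and Irgm2 share 162 bases of exon on the same strand on chromosome 11, and reads from there cannot be assigned to one of them with certainty.

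All 5 GBP GTPases, which coat pathogen vacuoles, had lower estimates in Cul5 cKO, from low levels. Gbp2 was at 4.01, 5.71 and 6.83 CPM in WT and at 1.998, 2.41 and 2.62 CPM in Cul5 cKO, without overlap. Its estimate was 43.6% of WT (log2 fold change -1.20 ± 0.260), with an adjusted p of 0.0818 in edgeR and 0.0126 in DESeq2, and leaving out WT replicate 1 made it a call in edgeR. Gbp7 was at 1.196, 3.11 and 4.30 CPM against 0.347, 2.32 and 0.711 CPM (-1.24 ± 0.735, adjusted p = 0.375), a similar estimate with a larger error, and its values overlapped. Gbp3 was at 0.555, 1.17 and 1.26 CPM against 0.130, 0.789 and 0.756 CPM (-0.74 ± 0.642, adjusted p = 0.546). In Gbp2, Gbp3, Gbp5 and Gbp7 replicate 1 was the lowest sample of its genotype.

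Gbp5 was at 4.398 to 9.60 CPM against 3.82 to 5.96 CPM (-0.59 ± 0.325), and Gbp4 at 6.49 to 15.7 CPM against 6.45 to 8.55 CPM (-0.49 ± 0.305). Gbp2, Gbp3, Gbp5 and Gbp7 lie in 1 cluster on chromosome 3 between 142493978 and 142638008, while Gbp4 lies on chromosome 5. Gbp4 shares stretches of 278 to 343 bases at over 95% identity with Gbp6, Gbp8 and Gbp9, of which Gbp9 held 80.0% as many counts, so the value of Gbp4 is uncertain.

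All 7 sensors and regulators were tested, with estimates from -0.76 to -0.01, a median of -0.11 and 0 calls. The 2 whose groups did not overlap are RNA sensors. Ddx58 (RIG-I), which recognises viral RNA ends, was at 26.8, 28.0 and 28.9 CPM in WT and at 18.2, 21.6 and 13.3 CPM in Cul5 cKO. The WT values lay close together while those of Cul5 cKO spread more widely (means 27.9 ± 1.02 and 17.7 ± 4.15, SD, n = 3). Its estimate was 63.7% of WT (log2 fold change -0.65 ± 0.170), with an adjusted p of 0.110 in edgeR and 0.0215 in DESeq2.

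Dhx58 (LGP2), a relative of RIG-I that lacks its signalling domain, was at 3.07, 3.98 and 5.06 CPM in WT and at 2.30, 2.45 and 2.18 CPM in Cul5 cKO, all below WT (-0.76 ± 0.250, adjusted p = 0.155). The third sensor of the family, Ifih1 (MDA5), was at 1.79, 4.02 and 2.78 CPM against 1.78, 3.15 and 2.98 CPM, and its genotypes overlapped (-0.13 ± 0.376, adjusted p = 0.883). Zbp1, a sensor of Z-form nucleic acid that can start necroptosis, was at 12.1, 10.6 and 11.6 CPM against 14.5, 10.7 and 8.31 CPM (-0.03 ± 0.208, adjusted p = 0.957).

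Irf9, the DNA-binding subunit of the ISRE-binding complex, was at 34.5, 34.9 and 37.7 CPM in WT and at 35.9, 37.6 and 32.4 CPM in Cul5 cKO (-0.01 ± 0.0848, adjusted p = 0.970). Irf1, a factor induced by IFN-γ, was at 23.0, 29.98 and 26.6 CPM against 19.5, 30.6 and 26.99 CPM (-0.05 ± 0.181, adjusted p = 0.914). The genotypes overlapped for both, and for Irf1 the lowest values were those of replicate 1. A stretch of 123 exonic bases of Irf9 is shared with Rnf31 on the same strand, and 45 bases of Irf7 lie opposite Phrf1, which was far more abundant than Irf7 in counts.

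**Figure D4:**
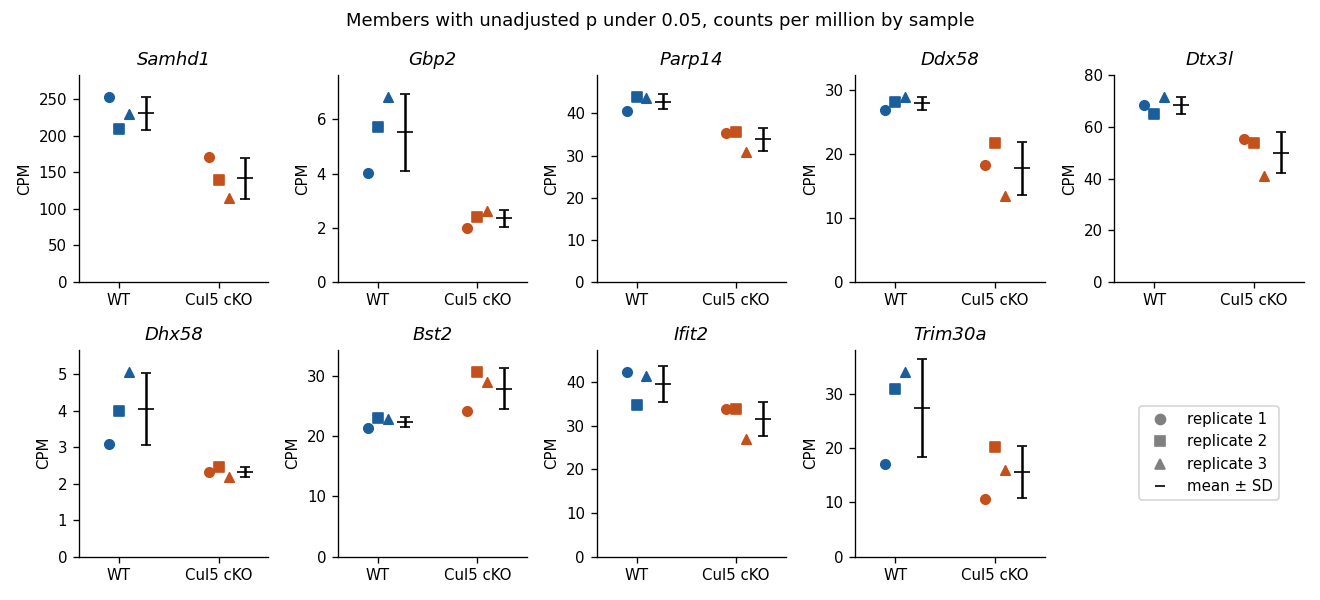
CPM in each sample (points, with a marker shape for each replicate) and mean ± SD (bars) for the 9 members with an unadjusted p under 0.05, ordered by p, each on its own axis from 0. Cul5 cKO lies below WT without overlap in Samhd1, Gbp2, Parp14, Ddx58, Dtx3l, Dhx58 and Ifit2, above WT in Bst2, and overlaps WT in Trim30a.

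Some members were divided by replicate, as many genes outside the set were. In 7 members (Ifit1, Ifi35, Usp18, Igtp, Irgm1, Irgm2 and Zbp1) replicate 1 of both genotypes lay above the 4 other samples, a pattern seen in 14.6% of all genes tested, and in 4 members (Xaf1, Gbp3, Ifih1 and Irf1) it lay below them, as in 12.2%. None of these 11 is among the 9 with an unadjusted p under 0.05. That follows largely from the pattern itself, which makes the genotypes overlap and widens the spread within each. What set replicate 1 apart is not given in the labels and was not tested. In replicates 2 and 3 alone, edgeR called 8.83% of all genes tested and 4 of the 33 members, Samhd1 (log2 fold change -0.78, adjusted p = 0.0190), Gbp2 (-1.29, adjusted p = 0.0375), Trim30a (-0.82, adjusted p = 0.0284) and Bst2 (0.38, adjusted p = 0.0478). The 8 members lower at an unadjusted p under 0.05 and Bst2 kept their direction under every alternative in which they had a value. They were picked by p in these same samples, and all but Trim30a had no overlap between genotypes. Their direction was thus largely set in advance, and keeping it is no further support.

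Other cells in the cultures moved with some of these values, and their part in the results was not tested. B cell markers (5 of 6 tested, 0 called) were highest in Cul5 cKO replicate 3, which was also the lowest sample for Samhd1, Parp14, Dtx3l, Ifit2, Ddx58 and Dhx58. In Cul5 cKO replicates 1 and 2 the B cell sum, 6.86 and 10.6 CPM, was below every WT sample. These 6 genes had no overlap between genotypes, so their place below WT in those replicates was set in advance. No conclusion on the part of B cells is drawn from it. Of the CD4 T cell markers, 6 of 6 had a lower estimate and 1, the costimulatory receptor Cd28, fell, from 88.2, 120.1 and 125.0 CPM in WT to 46.4, 56.3 and 45.0 CPM in Cul5 cKO (log2 fold change -1.17, adjusted p = 0.0205). The CD4 T cell sum was 1391 to 1439 CPM in the WT samples and 1255 to 1265 CPM in the Cul5 cKO samples. Cd4 itself was at 452 to 469.5 CPM in WT and at 440 to 459 CPM in Cul5 cKO.

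Interferon transcripts other than Ifng were at or under the floor in all 6 samples. Ifng was at or under it in WT replicates 1 and 3 and in Cul5 cKO replicate 1. Of 20 interferon genes in the annotation, 19, among them Ifnb1 and all Ifna genes, were at or under 3 counts in all 6 samples. Ifng, the cytokine whose protein the cultures' antibody binds, was at 0.128, 0.822 and 0.253 CPM in WT and at 0.0869, 1.45 and 4.45 CPM in Cul5 cKO. The Ifng values overlapped and were carried by replicates 2 and 3 of Cul5 cKO (log2 fold change 2.15 ± 1.19, adjusted p = 0.347). The CD8 T cell markers (2 of 2 tested, 0 called) summed to 5.76 to 6.53 CPM in WT and to 4.3, 6.35 and 11.65 CPM in Cul5 cKO. Cd8a stood at 6.27 CPM in Cul5 cKO replicate 3, the sample with the most Ifng. In the other 5 samples it was at 0.565 to 1.71 CPM. Cd8b1 was at 4.099 to 5.45 CPM in WT and at 3.735, 4.645 and 5.38 CPM in Cul5 cKO. Among the NK cell markers, Ncr1 was at 0 in all samples. Klrd1, the single one tested, was at 0.346 to 0.6405 CPM in WT. In Cul5 cKO it was at 0.174, 0.219 and 0.489 CPM. In Cul5 cKO replicate 2, the next highest for Ifng, the myeloid markers Lyz2 and Csf1r were at 2.81 and 2.63 CPM. Elsewhere they were at most at 0.26 CPM. Adgre1 was also highest in that sample, at 2.98 CPM against 1.563 to 2.092 CPM elsewhere. Itgam was at 2.498 CPM there, below the 5.927 and 4.808 CPM of WT replicates 2 and 3. Its estimate was lower in Cul5 cKO (log2 fold change -1.58, adjusted p = 0.194). Mpeg1 was highest in Cul5 cKO replicate 3, at 0.5335 CPM, and Cd14 was at or under 3 counts in all samples. The part of these cells in the Ifng values was not tested.

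Of the 14 receptor and signalling genes, 13 averaged over 10 TPM and were tested, and 0 were called. Ifnlr1, at a mean of 0.116 TPM, was too low to be tested. Ifnar1, the signalling chain of the type I receptor, was at 68.4, 68.5 and 77.4 CPM in WT and at 57.9, 57.4 and 51.7 CPM in Cul5 cKO, without overlap (log2 fold change -0.35 ± 0.0803, adjusted p = 0.0907 in edgeR and 0.0277 in DESeq2). Jak1, the kinase of both interferon receptors and of the IL-4 receptor, was at 407, 413 and 441 CPM against 381, 350 and 331 CPM (-0.25 ± 0.0709, adjusted p = 0.124). The cytokine-induced inhibitors Socs1 and Socs3 had higher estimates without overlap, 0.23 ± 0.0667 (adjusted p = 0.123 in edgeR and 0.0397 in DESeq2) and 0.43 ± 0.144 (adjusted p = 0.162 in edgeR and 0.0777 in DESeq2). Stat2, Tyk2, Jak2, Ifnar2, Ifngr1 and Ifngr2 overlapped between genotypes.

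Of the nucleic acid sensing genes outside the set, 12 were tested and 0 were called. Ikbke, a kinase that activates Irf3, was at 104, 141 and 136 CPM in WT and at 76.9, 100.2 and 83.9 CPM in Cul5 cKO, without overlap (log2 fold change -0.54 ± 0.142, adjusted p = 0.111 in edgeR and 0.0126 in DESeq2). Tlr7, a sensor of single-stranded RNA, was at 7.09, 11.6 and 9.62 CPM against 11.4, 20.0 and 22.2 CPM (0.93 ± 0.287, adjusted p = 0.141 in edgeR and 0.0324 in DESeq2).

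A list of 42 further interferon-induced genes held 32 that were tested, 24 with a lower and 8 with a higher estimate and a median log2 fold change of -0.37. In that list 2 genes fell and 0 rose at an adjusted p under 0.05, beside 1.03% of all genes tested in either direction. At an unadjusted p under 0.05, 9 were lower and 0 higher, beside 10.4% and 10.9% of all genes tested, and without overlap 9 lay below WT and 0 above, beside 13.5% and 14%. This list too was chosen with earlier results of these data known. Its shares describe the list and were not tested. The interferon-inducible mitochondrial protein Ifi27l2a was at 12.2, 10.99 and 12.7 CPM in WT and at 5.86, 6.88 and 6.49 CPM in Cul5 cKO, and fell to 54.0% of WT (log2 fold change -0.89 ± 0.134, adjusted p = 0.0347). Sp100, a component of nuclear bodies that restricts DNA viruses, was at 103, 103 and 120 CPM against 75.6, 71.6 and 60.2 CPM, and fell to 63.9% of WT (-0.65 ± 0.106, adjusted p = 0.0437). Herc6, the mouse ligase that attaches Isg15 to proteins, was at 15.5, 16.4 and 17.7 CPM against 10.6, 10.9 and 9.16 CPM (-0.68 ± 0.118), with an adjusted p of 0.0506 in edgeR, which missed the threshold, and 0.00424 in DESeq2. Ifi209, with the lowest estimate of the list, was at 0.726, 4.80 and 9.36 CPM against 0.521, 1.36 and 0.623 CPM, overlapping through WT replicate 1 (-2.43 ± 0.854, adjusted p = 0.172 in edgeR and 0.0199 in DESeq2).

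Of the same list, Epsti1 (-0.85), Trim21 (-0.50), Parp11 (-0.38), Ifitm2 (-0.29), Oas1b (-0.57) and Parp10 (-0.415) also had every Cul5 cKO sample below WT. Their adjusted p-values in edgeR were 0.133, 0.180, 0.171, 0.206, 0.244 and 0.239. Other widely used type I response genes of the list, Cmpk2, Ifi44l, Cxcl9 and Cxcl10, were too low to be tested, as Isg15 and Rsad2 were. Eif2ak2, at 21.0 to 21.4 CPM in WT and at 19.6 to 21.3 CPM in Cul5 cKO, and Stat2 had estimates of -0.04 ± 0.084 and 0.02 ± 0.0784. Ifitm1 did not pass the expression filter. It was at 20.7 CPM in Cul5 cKO replicate 2 and at 0.214 to 1.07 CPM in the other samples.

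**Figure D5:**
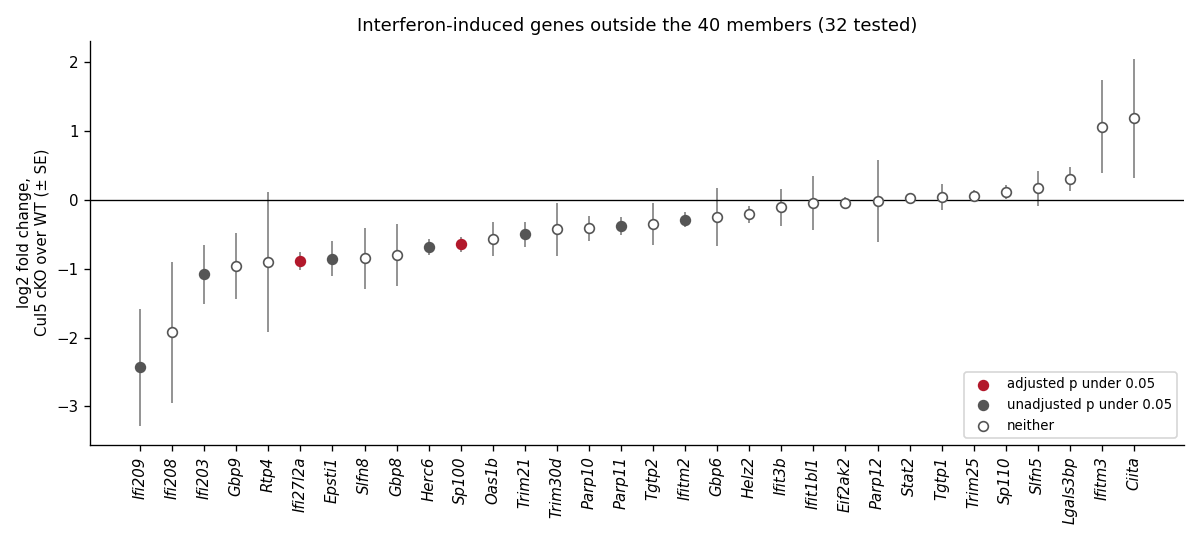
log2 fold change of Cul5 cKO over WT with its SE (bars) for the 32 tested interferon-induced genes outside the set, ordered by estimate, in red at an adjusted p under 0.05 and filled grey at an unadjusted p under 0.05. The red points are Ifi27l2a at -0.89 and Sp100 at -0.65, and all 9 filled points lie below 0.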

How the data were processed

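Poly-A RNA was sequenced on a BGIseq500. The authors pseudo-aligned the reads to GRCm38 transcripts with kallisto 0.46.2 and deposited, for each sample, estimated counts (not normalized) and TPM (counts scaled by transcript length to a fixed total) per transcript. A further deposited table gives log2 CPM per gene after TMM normalization with edgeR 3.34.0, whose columns of fold changes and p-values were not used. Transcripts were summed by gene with GENCODE vM21 (97.7% of them matched), and sums were rounded. The design was fitted over all genes in R 4.3.3 with edgeR 4.0.16 (default expression filter, TMM, quasi-likelihood test, no covariate), with Benjamini-Hochberg adjustment over 12925 genes and an adjusted p under 0.05 as the call. Every log2 fold change is Cul5 cKO over WT. The SE, where given, is the absolute log2 fold change divided by the square root of the quasi-likelihood F statistic, so it is approximate. CPM uses TMM-adjusted library sizes. DESeq2 1.42.0, limma 3.58.1, Python 3.11.15, pandas 2.3.3 and BLAST 2.17.0 were also used. Copies are transcripts of other genes with at least 95% identity over at least 150 bases. The fits were tested on simulated data.

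Depth was 3944803 counts in WT replicate 3 and at least 23111689 in the others, so the values of WT replicate 3 are the least precise. Values in every sample are given for Isg15, Irf7, called genes, and in each role group the 3 members with the highest TPM and the 3 with the largest change among those tested. Those of other genes were added after their values were seen. The members and lists were chosen with earlier results of these data known. A gene was left out of the lists and is not reported here. The alternatives were DESeq2, library size alone, DESeq2 size factors, no filter beyond 1 count, at least 10 counts in each of the samples, limma on log2 TPM with a pseudocount of 1 or 0.1, limma on the deposited log2 CPM, counts scaled from TPM, the study's unadjusted criterion, a replicate block, replicate 1 as a term, replicates 2 and 3 alone, and each sample left out.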

Additional observations from a re-analysis of the deposited data

How the results depend on the processing

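Which members passed the threshold depended on the processing. The 0 members called (9 at an unadjusted p under 0.05) became 4 with DESeq2, 1 without a filter (Samhd1), 7 by the study's unadjusted criterion, 4 in replicates 2 and 3 alone and 8 with replicate 1 as a term. With each sample left out it was 0 to 1, with 1 without WT replicate 1 (Gbp2) and 1 without Cul5 cKO replicate 1 (Samhd1), and it stayed 0 under the 7 other alternatives apart from the replicate block. Over all genes, the 133 calls became 748 with DESeq2, 228 without a filter, 60 with counts scaled from TPM, 27 and 30 when limma was run on log2 TPM with a pseudocount of 1 or 0.1, 42 with limma on the gene-level table, 2362 by the study's criterion, 1688 with replicate 1 as a term, 1153 in replicates 2 and 3 alone, and 2 to 316 with each sample left out. The count was 316 without WT replicate 1, 2 without either WT replicate 2 or 3, 45 without Cul5 cKO replicate 2 and 3 without its replicate 3. Fewer samples or genes enter some of these fits, and the cause of the other differences was not tested.

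Equal replicate numbers deviated together with correlations of 0.370, 0.206 and 0.0245, so the numbers were not taken to pair the samples. As a replicate block they gave 848 calls, 4 of them members (Samhd1, Gbp2, Trim30a and Ddx58).

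The median log2 fold change of the antiviral genes and of the GTPases stayed below 0 under every alternative that gave one. It ran from -0.320 to -0.115 for the antiviral genes and from -0.432 to -0.115 for the GTPases. Both moved by less than the spread between replicates, 0.208 and 0.398 on the log2 scale. For the GTPases that spread is larger than the median itself, -0.329, so this says little about its stability. The median of the sensors and regulators was -0.414 to -0.018 with each sample left out, the former without WT replicate 1. Members with an estimate near 0 changed sign. Oas3 became 0.01 with DESeq2, 0.00 with DESeq2 size factors, 0.03 in the replicate block, 0.04 with replicate 1 as a term and 0.14 with limma on the gene-level table. Iigp1 became -0.02 and -0.09 with limma on TPM, -0.07 in the block, -0.06 with replicate 1 as a term and -0.01 on the gene-level table. Zbp1 became 0.18 with counts scaled from TPM, 0.08 and 0.08 with limma on TPM and 0.10 on the gene-level table, Ifih1 0.02 with counts scaled from TPM, Irf1 0.01 in replicates 2 and 3, and Irf9 0.01 with DESeq2, 0.01 without a filter and 0.00 in the block. With each sample left out in turn, estimates that changed sign ran from -0.27 to 0.16 for Oas3, -0.02 to 0.45 for Usp18, -0.23 to 0.16 for Igtp, -0.21 to 0.52 for Iigp1, -0.41 to 0.28 for Ifih1, -0.26 to 0.15 for Zbp1, -0.19 to 0.12 for Irf1, -0.91 to 0.55 for Irf7 and -0.05 to 0.05 for Irf9.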
